A study of Mus musculus with 6 samples.

Results

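The primitive streak and mesendoderm transcription factors are 9 genes, T, Eomes, Mixl1, Gsc, Foxa2, Sox17, Lhx1, Mesp1 and Mesp2, followed here across 3 arrays of mouse epiblast stem cells (EpiSC) and 3 arrays of mouse embryonic stem cells (mES). Every non-control probe that the scanner files name for 1 of these genes was taken, which gave 14 of the 41174 probes and 9 of the 28786 gene names on the array. Of these, 11 entered the fit, as did 29542 other probes, because the scanner marked them as well above background on all 3 arrays of 1 group or of both. The remaining 3 probes, 2 of Sox17 and 1 of Mesp1, did not enter, and their values are given below as a description. EpiSC are derived from the postimplantation epiblast, and ES cells from the inner cell mass of the earlier blastocyst. Per the labels, the EpiSC group held line EpiSC-5 and line EpiSC-7 at passage 25 (P25) and passage 20 (P20), all kept with FGF2, and the mES group held lines ESF122, ESF175/1 and ESF58, all kept with LIF. Both groups grew on irradiated mouse embryonic fibroblasts in the same serum-replacement medium, so RNA of these feeder cells was measured along with that of the stem cells. The EpiSC group is therefore 2 lines, 1 of them sampled at both passages, and the medium's added factor changes with the cell type, so that the effects of cell type and of added factor cannot be told apart. The ESF58 culture is named ESF58/2 in its title and ESF58/1 in its source label.

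In the mouse embryo, the primitive streak is the site where epiblast cells leave the epithelium and become mesoderm and definitive endoderm. Nodal, Wnt and Bmp signals induce it, and T-box, homeobox, forkhead and Sox factors then divide it into regions. Anterior streak cells give rise to the node, the axial mesoderm and the definitive endoderm, and more posterior cells give rise to cardiac, paraxial and extraembryonic mesoderm.

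Of the 9 factors, 7 were higher in EpiSC and 1 was lower. T, Eomes, Mixl1, Gsc, Foxa2, Sox17 and Lhx1 rose, with log2 fold changes between 3.55 for Mixl1 and 8.57 for 1 probe of Lhx1. The sizes at both ends are uncertain, since neither probe was well above background on any mES array. Mesp2 fell by 1.63 on the log2 scale. Mesp1 did not pass the test. By probe, 9 of the 11 that entered were called higher, where 12.2% of all 29553 tested probes were, and 1 was called lower, where 13.9% of all probes were (limma, adjusted p under 0.05). The median log2 fold change of the member probes was 4.18, and that of all tested probes was -0.09. Of the 11 probes, 8 were well above background on all 6 arrays, and of these 6 were called higher and 1 lower. In a fit limited to the 25586 probes of the array that met this filter, 3015 were called higher and 3982 lower.

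Values are given below as a scaled signal, in which 100 is the 75th percentile of the probe signals on that array. This unit compares arrays for 1 probe and does not compare 1 probe with another. Where values of all arrays are listed, they run EpiSC-5, EpiSC-7 P25 and EpiSC-7 P20 for EpiSC, and ESF122, ESF175/1 and ESF58 for mES. The scanner marked 66.3% to 75.4% of the probes as well above background on each array, and no spot was saturated. The lowest scaled signal that counted as well above background was 1.63 to 1.74 on the EpiSC arrays and 2.29 to 2.54 on the mES arrays. The part of this shift in the differences of dim probes, such as those of Mesp1 and Mesp2, was not tested. Since each sample is a whole culture, a lower share of cells that make a transcript and less transcript per cell cannot be told apart. The p-values measure the spread between these 6 arrays, of which both EpiSC-7 arrays are 1 line, and with those 2 arrays averaged all 10 member calls made below held.

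**Figure D1:**
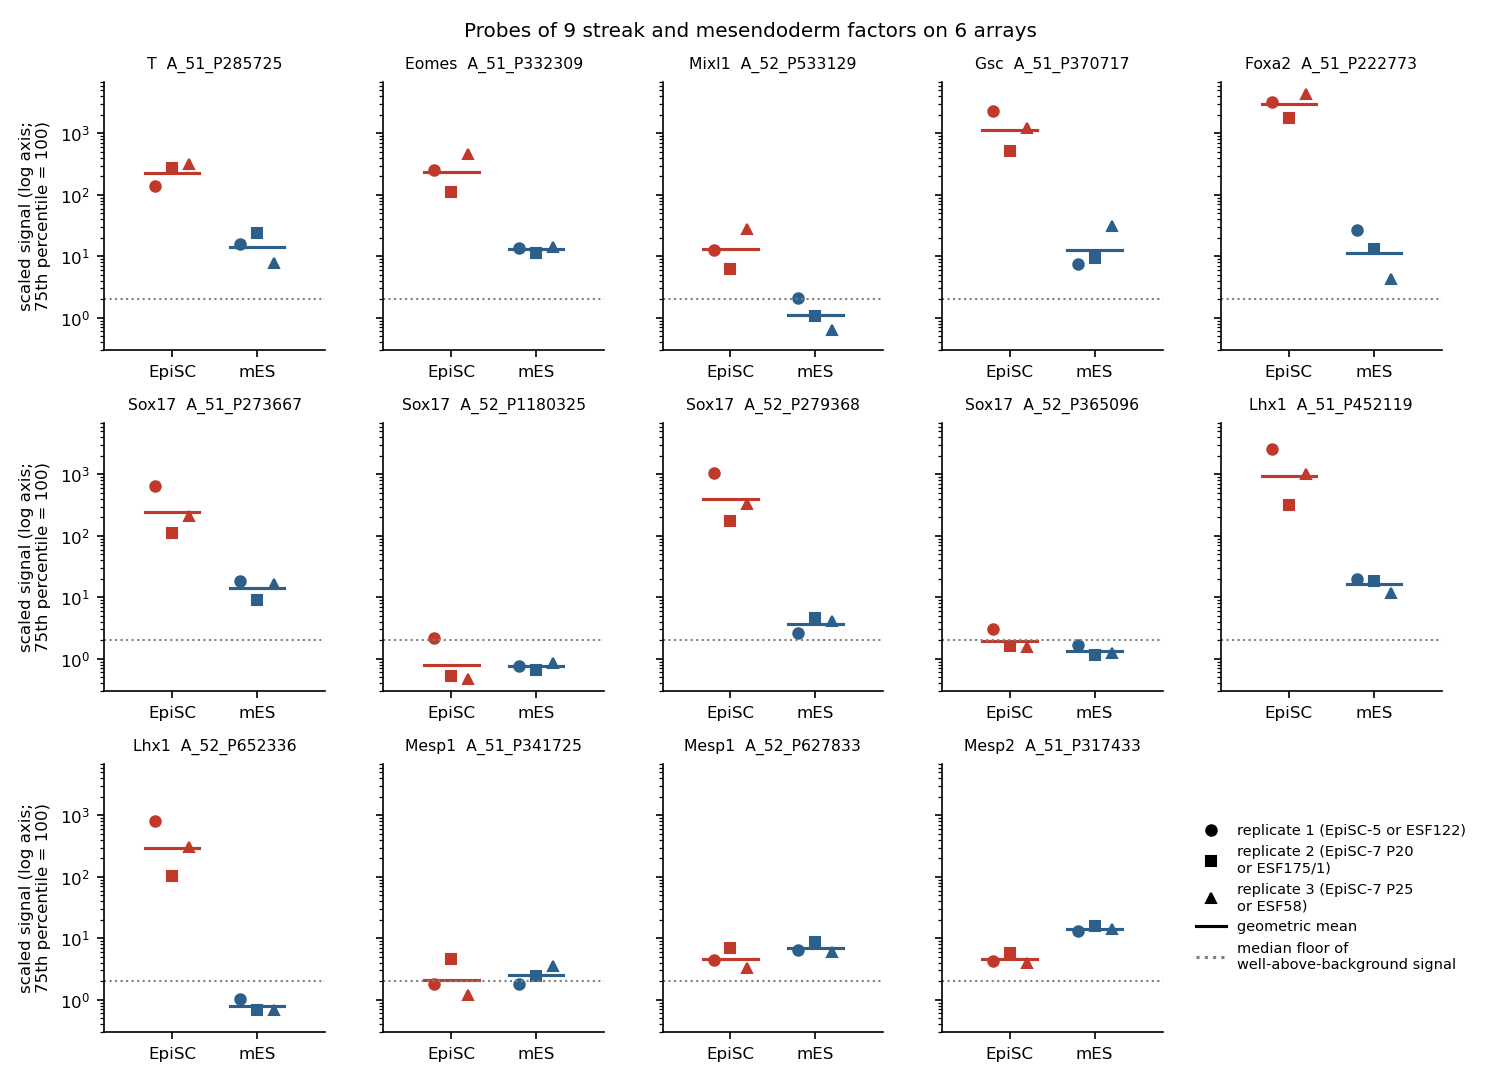
Scaled signal of all 14 probes (log axis, 100 is the array's 75th percentile), with 1 point per array, EpiSC in red on the left and mES in blue on the right of each panel, and bars at the geometric mean of 3 arrays. The EpiSC points lie above all mES points for 9 probes, below them for Mesp2, and among them for Mesp1 and for both Sox17 probes that did not enter. Of all probes that entered the fit, 20.5% had EpiSC above all mES and 27.4% had EpiSC below all mES.

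T, also called Brachyury, is the founding T-box factor and marks the streak, nascent mesoderm and notochord. Its signal was 138, 317 and 278 in EpiSC, against 15.6, 23.9 and 7.81 in mES. The groups did not overlap, and the lowest EpiSC array was 5.77 times the highest mES array. The log2 fold change was 4.01 ± 0.49 (standard error, n = 3 each), or 16.1-fold, with a limma adjusted p of 0.00305. The gene lies on chromosome 17 (chr17:8434423-8442496, GRCm38.p6).

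Eomes, a second T-box factor, is needed in the mouse epiblast for cells to leave the streak and for definitive endoderm, and it also acts in trophoblast. Its signal was 256, 455 and 113 in EpiSC, against 13.8, 11.2 and 14.3 in mES. The EpiSC arrays lay within a 4.02-fold range and the mES arrays within a 1.27-fold range, and all EpiSC arrays lay above all mES arrays. Eomes (chr9:118478186-118486132) was 18.1-fold higher (log2 4.18 ± 0.48, limma adjusted p 0.00262).

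Mixl1, a paired-type homeodomain factor of the streak, was dim. Its signal was 12.7, 28.0 and 6.33 in EpiSC, against 2.07, 1.08 and 0.630 in mES, and it was well above background on all 3 EpiSC arrays and on 0 of the 3 mES arrays. Its mES values are thus only an upper limit. EpiSC were at least 5.38-fold higher, computed against the lowest signal that counted as well above background on each mES array or the probe's own signal, whichever was greater. The measured log2 difference was 3.55 ± 0.63 (limma adjusted p 0.0104). It came down to 1.04 (limma adjusted p 0.0369) with normexp background correction, which here added an offset of 50 to every signal. Such an offset by itself shrinks the ratio between dim signals. Mixl1 lies at chr1:180693043-180697034.

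Gsc (goosecoid) is a homeobox repressor of the anterior streak and organizer. It had 2341, 1224 and 524 units in EpiSC, against 7.38, 9.39 and 30.8 in mES. The lowest EpiSC array was 17.0 times the highest mES array, ESF58. The difference was 88.9-fold (log2 6.47 ± 0.71, limma adjusted p 0.00219). Gsc lies at chr12:104471209-104473236.

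Foxa2 is a forkhead factor of the anterior streak, node and definitive endoderm, and in the mouse it is also made in visceral endoderm. Its signal was 3254, 4428 and 1796 in EpiSC, against 26.6, 13.0 and 4.29 in mES. With 259-fold (log2 8.02 ± 0.68, limma adjusted p 0.000942), it had the largest difference of the 8 members' probes that were above background on all arrays. The EpiSC arrays spread over a 2.46-fold range and the mES lines over a 6.20-fold range, with ESF122 highest and ESF58 lowest. The lowest EpiSC array was 67.6 times the highest mES array. Foxa2 lies at chr2:148042877-148046969.

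Sox17, an HMG-box factor of definitive endoderm that is also made in primitive and visceral endoderm, had 4 probes. Probe A_51_P273667 gave 642, 214 and 111 in EpiSC, against 18.7, 8.92 and 16.2 in mES, a 17.8-fold difference (log2 4.16 ± 0.64, limma adjusted p 0.00649). Probe A_52_P279368 gave 1069, 328 and 172 in EpiSC, against 2.67, 4.54 and 4.04 in mES, where it was well above background on 2 of 3 arrays. For this probe the measured difference was 107-fold (log2 6.74 ± 0.64, limma adjusted p 0.00138). Its size is uncertain, because the mES signals lie close to background, and normexp gave a log2 difference of 4.87. Both probes put EpiSC-5 highest and EpiSC-7 P20 lowest among the EpiSC arrays. The other 2 probes stayed near background everywhere. A_52_P365096 gave 3.09, 1.54 and 1.60 in EpiSC, against 1.68, 1.14 and 1.23 in mES. A_52_P1180325, which the files annotate to a cDNA clone, gave 2.18, 0.465 and 0.516 in EpiSC, against 0.773, 0.662 and 0.844 in mES. The 4 probes of Sox17 (chr1:4490928-4497426) therefore disagreed, and which transcript the dim pair would detect was not tested.

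Lhx1, a LIM-homeobox factor of the anterior streak, node and anterior visceral endoderm, had 2 probes. A_51_P452119 gave 2620, 1014 and 315 in EpiSC, against 20.1, 18.4 and 11.7 in mES, a 57.7-fold difference (log2 5.85 ± 0.73, limma adjusted p 0.00327). A_52_P652336 gave 820, 311 and 102 in EpiSC, against 1.02, 0.680 and 0.684 in mES, where it was above background on 0 of 3 arrays. EpiSC were at least 121-fold higher by this probe (measured log2 difference 8.57 ± 0.71, limma adjusted p 0.000868). The probes ordered the EpiSC arrays alike, and Lhx1 spread more than any other member over the EpiSC arrays, 8.32-fold and 8.07-fold by the 2 probes. Lhx1 lies at chr11:84517975-84525534.

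Mesp1 and Mesp2, neighbouring basic helix-loop-helix genes on chromosome 7, did not follow the other factors. Mesp1 (chr7:79792241-79793590) marks the earliest cardiac mesoderm that leaves the streak. Its entering probe gave 4.48, 3.28 and 6.84 in EpiSC, against 6.42, 8.81 and 5.96 in mES. The groups overlapped, and the log2 difference of -0.58 ± 0.31 did not pass (limma adjusted p 0.204). The other Mesp1 probe was well above background on 2 EpiSC arrays and 1 mES array and gave 1.81, 1.18 and 4.53 in EpiSC, against 1.79, 2.47 and 3.59 in mES. Mesp1 was thus a dim signal in both groups, with no difference shown in either direction.

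Mesp2 (chr7:79810727-79813431) acts in somite segmentation in the presomitic mesoderm. It gave 4.32, 4.01 and 5.67 in EpiSC, against 13.2, 15.7 and 13.9 in mES. All EpiSC arrays lay below all mES arrays, and the arrays of each group were close together, within a 1.41-fold range in EpiSC and 1.19-fold in mES. Mesp2 was 3.09-fold lower (log2 -1.63 ± 0.20, limma adjusted p 0.003). The probe was well above background on all 6 arrays, at signals far under the 75th percentile.

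**Figure D2:**
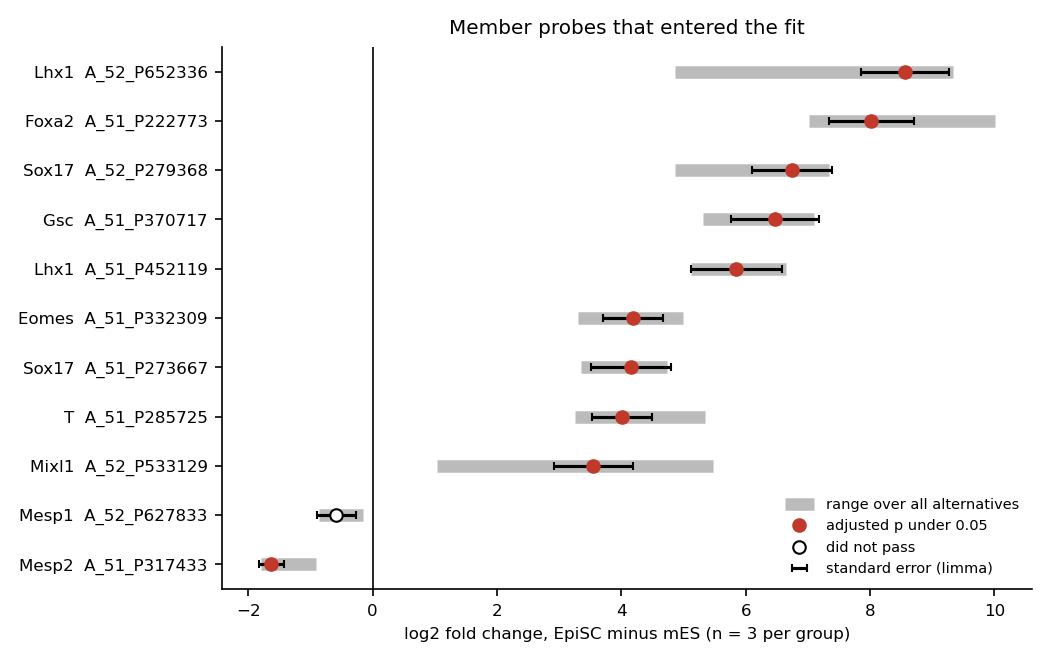
Log2 fold change, EpiSC minus mES, of the 11 probes that entered, with limma's standard error as the black bar and the range over all alternative settings in grey (n = 3 arrays each). Of the probes, 10 passed (filled) and 1 of Mesp1 did not (open), and no grey bar crosses 0.

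Leaving out any 1 of the 6 arrays kept each of the 10 calls, with a highest limma adjusted p of 0.0368 for Mixl1. EpiSC-7 P25 and ESF58 were hybridised at position 1 of a slide and the other 4 arrays at position 4. Within position 4 (2 arrays each), 9 of the 10 calls held, and Sox17 by probe A_51_P273667 did not (log2 4.37, limma adjusted p 0.0546). Within position 1 (EpiSC-7 P25 against ESF58, with no test), the log2 differences were larger for T (5.34), Eomes (4.995), Mixl1 (5.47), Foxa2 (10.01) and the probes of Lhx1 (6.43 and 8.83), and smaller for Gsc (5.31) and the probes of Sox17 (3.73 and 6.34). For Mesp1 and Mesp2 they were -0.86 and -1.80. With normexp background correction and its offset of 50, all 10 calls held. The log2 differences were smaller for every member called, from 7.02 for Foxa2 to -0.92 for Mesp2.

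Promoter windows of 300 bases, 250 before and 50 from the annotated start on, were read from RefSeq (GRCm38.p6) for the members, and 7 of the 9 had at least 1, with 9 windows in all because Foxa2 has 3 starts. Mixl1 and Sox17 had no entry in the table. The 4 windows of the members that hold a searched motif are printed, because they set T and Foxa2, which rose, beside Mesp1, which did not pass, and Mesp2, which fell. Capitals mark the motif matches, and each sequence runs 5′ to 3′ along the gene's own strand.
T promoter, chr17:8434173-8434472, plus strand: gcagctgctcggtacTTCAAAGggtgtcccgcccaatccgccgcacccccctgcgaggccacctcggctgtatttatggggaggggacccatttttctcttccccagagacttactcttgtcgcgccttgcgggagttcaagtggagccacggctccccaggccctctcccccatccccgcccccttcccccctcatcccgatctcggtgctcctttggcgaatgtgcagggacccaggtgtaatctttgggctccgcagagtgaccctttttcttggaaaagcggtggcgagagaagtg
Foxa2 promoter of the third start, chr2:148045415-148045714, minus strand: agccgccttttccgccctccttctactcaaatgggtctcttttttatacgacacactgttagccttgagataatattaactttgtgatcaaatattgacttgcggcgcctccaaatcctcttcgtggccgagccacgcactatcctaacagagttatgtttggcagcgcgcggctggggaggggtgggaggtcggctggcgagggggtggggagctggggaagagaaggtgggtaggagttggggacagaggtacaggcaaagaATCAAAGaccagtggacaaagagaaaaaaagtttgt
Mesp1 promoter, chr7:79793541-79793840, minus strand: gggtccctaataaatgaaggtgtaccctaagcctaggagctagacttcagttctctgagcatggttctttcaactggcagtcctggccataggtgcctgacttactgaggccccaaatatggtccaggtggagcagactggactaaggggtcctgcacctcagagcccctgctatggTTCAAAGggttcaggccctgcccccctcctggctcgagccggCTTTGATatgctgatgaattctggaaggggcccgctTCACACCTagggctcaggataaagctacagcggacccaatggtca
Mesp2 promoter, chr7:79810477-79810776, plus strand: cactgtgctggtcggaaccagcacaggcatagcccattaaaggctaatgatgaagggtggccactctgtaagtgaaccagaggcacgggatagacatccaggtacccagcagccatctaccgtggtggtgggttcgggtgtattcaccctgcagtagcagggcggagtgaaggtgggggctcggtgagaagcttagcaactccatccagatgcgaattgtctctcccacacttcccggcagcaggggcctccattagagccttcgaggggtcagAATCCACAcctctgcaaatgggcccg

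The motifs searched on both strands were the T-box site AGGTGTGA, the FoxH1 motif AATCCACA, the Smad palindrome GTCTAGAC, the TCF/LEF motifs CTTTGAT and CTTTGAA, the forkhead motif TGTTTAC and the homeodomain motif TAATTA, none of which contains another. T holds CTTTGAA on the opposite strand, printed as TTCAAAG, 235 bases before the start, and 5.14% of all 32851 promoters hold this motif. The third Foxa2 window holds CTTTGAT, printed as ATCAAAG, just after the start, and 3.73% of all promoters do. Mesp1 holds 3 matches: CTTTGAA printed as TTCAAAG 73 bases before the start, CTTTGAT 31 bases before it, and the T-box site, printed as TCACACCT, just after it. The T-box site is in 1.28% of all promoters. Mesp2 holds the FoxH1 motif 24 bases past the start, as 0.855% of all promoters do. GTCTAGAC, TGTTTAC and TAATTA, found in 0.213%, 3.65% and 5.29% of all promoters, were in none of the 9 windows. The windows of Eomes, Gsc and Lhx1, which rose, held no match. The windows also differed in CpG content, with 4 CpG in Mesp1, 10 in Mesp2 and in Eomes, 12, 23 and 13 in the windows of Foxa2, 17 in T, 25 in Gsc and 31 in Lhx1, where the median of all promoters was 7.

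The EpiSC arrays were then set against each other to ask how the factors vary among the lines. EpiSC-5 was the highest EpiSC array for Gsc, Sox17 and Lhx1. It was the lowest for T. EpiSC-7 P25 was the highest for T, Eomes, Mixl1 and Foxa2, and EpiSC-7 P20 was the lowest for each of the 7 factors that rose except T. For Mesp1 and Mesp2 this order turned, and P20 was the highest of the EpiSC arrays.

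EpiSC-5 minus EpiSC-7 was 2.21 and 2.21 (log2) for the probes of Lhx1, 2.05 and 2.17 for those of Sox17, 1.55 for Gsc and -1.11 for T. It was between -0.14 and 0.21 for Foxa2, Eomes, Mixl1, Mesp1 and Mesp2. None of these passed, as limma called 0 of 29535 probes (0%) between the lines, and every member's adjusted p was 1. At an unadjusted p under 0.05 there were 908 probes (3.07%), among them both probes of Sox17 (p 0.0149 and 0.00645 by limma) and both of Lhx1 (p 0.0251 and 0.0199 by limma). This share of all probes is smaller than the share of 0.05 that such a threshold passes when no probe differs. The probes of 1 gene were read on the same arrays and are not separate observations. EpiSC-5 was 1 array in this fit and was assumed to vary like the others, and EpiSC-7 was 1 line at both passages.

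Between the passages there was 1 array each and no test. EpiSC-7 P25 over P20 was 4.43-fold for Mixl1, 4.02-fold for Eomes, 3.22-fold and 3.06-fold for the probes of Lhx1, 2.46-fold for Foxa2 and 2.34-fold for Gsc. For Sox17 it was 1.92-fold and 1.91-fold, and for T 1.14-fold, so T was the factor that differed least among those that rose. Of the 11 member probes, 6 were at least 2-fold higher at P25, where 3.97% of all probes were, and 2 of these were at least 4-fold higher, where 0.552% of all probes were. Mesp1 was 2.08-fold and Mesp2 1.41-fold lower at P25. The arrays lay on the same slide at different positions, and their fibroblast markers differed as given below. The part of either in these differences was not tested.

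**Figure D3:**
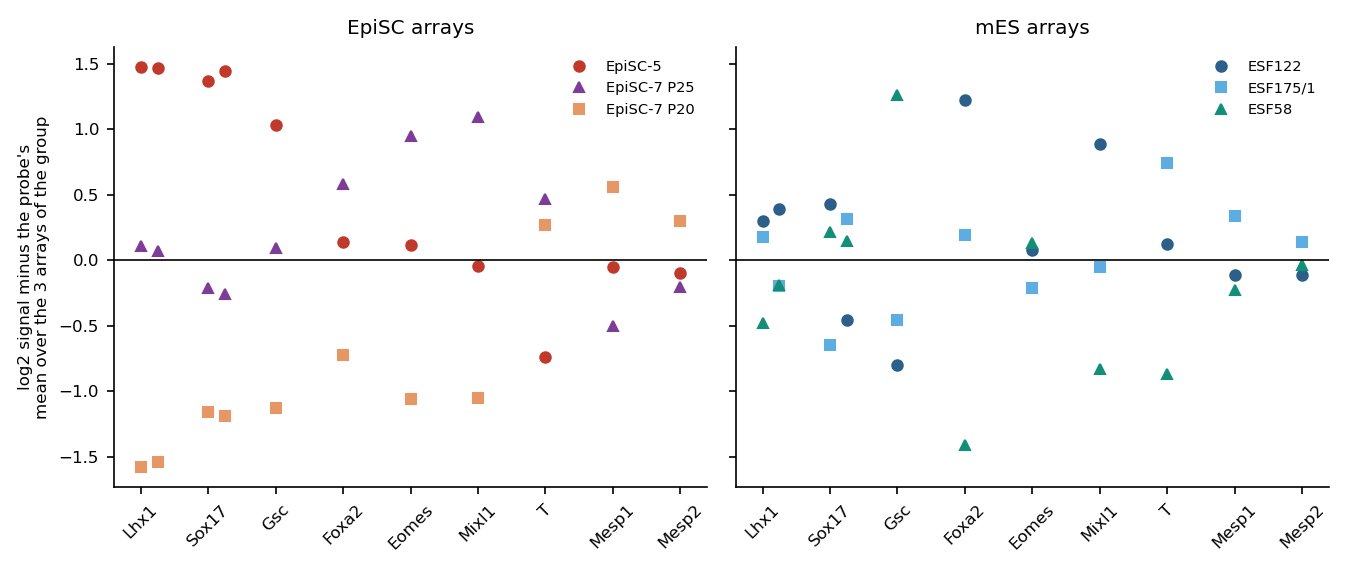
Log2 signal of each entering member probe minus its mean over the 3 arrays of its group, with EpiSC arrays in the left panel and mES arrays in the right one, and probes of 1 gene side by side. EpiSC-5 (circles) lies highest for Lhx1, Sox17 and Gsc, EpiSC-7 P25 (triangles) highest for Foxa2, Eomes, Mixl1 and T, and EpiSC-7 P20 (squares) lowest for all of these but T. In mES, Mixl1 and the second Lhx1 probe were not well above background, and their points have no order.

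The mES lines ranked differently from factor to factor. ESF122 was highest for Foxa2, ESF175/1 for T and Mesp2, and ESF58 for Gsc and, within the 1.27-fold range given above, for Eomes. Mixl1 and the second Lhx1 probe had no order in mES, since they were not above background there. T, Foxa2 and Lhx1 (A_51_P452119) were each printed 10 times per array, which shows how well their signals were measured. On the EpiSC arrays the SD of log2 over the spots of a probe was at most 0.084. On ESF58 the spots of T spanned 1.91 to 12.3 (SD 0.99, 10 spots), those of Foxa2 2.77 to 18.1 (SD 0.77, 10 spots) and those of Lhx1 5.57 to 15.3 (SD 0.42, 9 spots). The median SD over all 245 probes printed 10 times was 0.0701 to 0.103 per array. Every ESF58 spot still lay below every EpiSC spot of its probe.

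**Figure D4:**
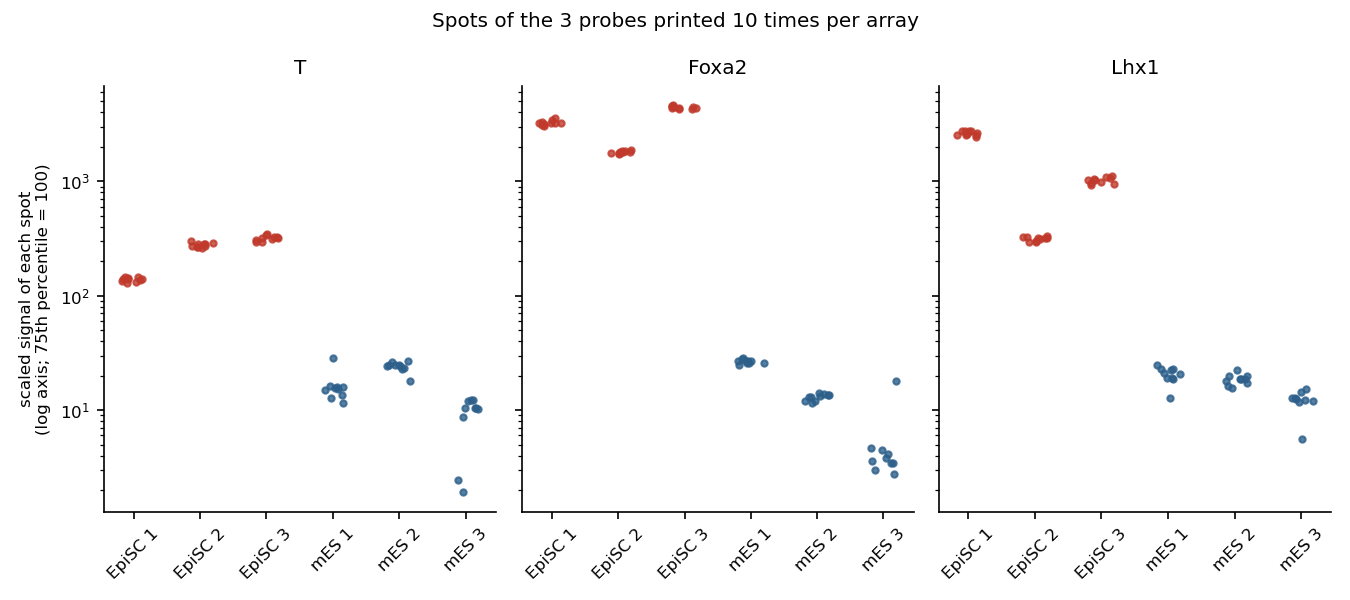
Scaled signal of each single spot (log axis) of the probes of T, Foxa2 and Lhx1 printed 10 times per array, EpiSC arrays left in red and mES arrays right in blue. EpiSC spots of an array lie close together, and the widest scatter is on mES 3 (ESF58), where T spans 1.91 to 12.3.

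Other genes of the pathway were taken from 5 lists written from textbook knowledge, but with earlier results of these data known. Their counts are therefore a description and no independent support. With 1 probe per gene, 75 genes were tested. Of these, 28 were higher and 4 lower in EpiSC, where 11.8% of all 20689 genes were higher and 14.5% lower (limma). Their median log2 fold change was 0.79. In the fit limited to probes well above background on all 6 arrays, 24 of 63 were called higher and 5 lower. In that fit 3015 of 25586 probes of the array were called higher and 3982 lower. A gene can stand in more than 1 list.

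Among the streak inducers, ligands, receptors and their cofactors, 8 of 24 tested genes rose and 2 fell. Fgf8, an FGF ligand of the streak, had 2119, 2169 and 1824 units in EpiSC, against 89.4, 76.1 and 36.9 in mES (log2 5.01, limma adjusted p 0.000451). Cfc1, a Nodal co-receptor of the EGF-CFC family, rose by 1.98 on the log2 scale, and Furin, a proprotein convertase that can cleave Nodal, by 1.69. Both lost their call without some single array (adjusted p up to 0.0548 and 0.0578 in limma). Pcsk6, another convertase that can cleave Nodal, fell by 3.76 on the log2 scale, and Fgf17, another FGF ligand, fell by 1.73. The inducing ligands Nodal, Wnt3 and Bmp4, singled out here after their values were seen, did not pass by their brightest probes. Their log2 differences were 0.50, 2.93 and -1.48 (limma adjusted p 0.145, 0.0555 and 0.0693). For Wnt3 all EpiSC arrays lay above all mES arrays, and its other probe gave a log2 difference of 3.79. Wnt8a (2.86) and Wnt3a (0.16) did not pass either (limma adjusted p 0.179 and 0.828). Nodal gave 1103, 1246 and 1132 units in EpiSC, against 1017, 618 and 878 in mES, a high signal in both groups.

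Of the 10 secreted antagonists of Nodal, Wnt and Bmp signals, 7 rose and 0 fell (limma), and the list's median log2 fold change was 3.18. Among those that rose, Cer1, Dkk1 and Frzb entered the fit through the EpiSC arrays alone, where they were high. Cer1, an antagonist of Nodal and Bmp made in anterior visceral and definitive endoderm, gave 8671, 3406 and 1252 units in EpiSC, and was not well above background on any mES array. It was at least 1367-fold higher (limma adjusted p 3e-04). Dkk1, a Wnt antagonist, gave 689, 700 and 243 units in EpiSC, against 2.95, 7.93 and 4.69 in mES (log2 6.68). Frzb, which binds Wnt ligands, gave 245, 177 and 54.2 units in EpiSC, against 2.95, 0.669 and 4.21 in mES (measured log2 difference 6.04). Dkk1 and Frzb were each well above background on 2 of 3 mES arrays, so the size of their differences is uncertain. EpiSC-7 P20 was the lowest EpiSC array for all 3, as it was for 6 of the 7 factors that rose.

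The endoderm and node regulators rose in 8 of 15 tested genes, and 0 fell (limma), with a list median of 1.90. Among those that rose, Shh, Foxa1 and Sox7 entered through the EpiSC arrays alone. Cyp26a1, which degrades retinoic acid, rose by 7.92 on the log2 scale (limma adjusted p 0.000773). Shh, a ligand of the node and notochord, gave 35.9, 46.9 and 7.52 units in EpiSC, was above background on no mES array, and was at least 9.56-fold higher. Trh, the precursor of thyrotropin-releasing hormone, rose by 4.85. Of the nascent mesoderm surface genes, 3 of 10 rose, Cdh2 (log2 4.78), Flrt3 (2.96) and Aplnr (0.77), and 0 fell (limma). Cdh2 is N-cadherin, Flrt3 a transmembrane adhesion protein and Aplnr the receptor for apelin. The limma adjusted p of Flrt3 and Aplnr reached 0.0616 and 0.0755 when single arrays were left out.

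Other streak and mesoderm regulators did not move with the 7 factors as a group: 2 of 18 rose, 2 fell, and the list median was 0.31. Sp5, a target of Wnt signals, gave 235, 984 and 239 units in EpiSC, against 30.8, 30.5 and 21.1 in mES (log2 3.81, limma adjusted p 0.00574), and Dll3, a Notch ligand, rose by 2.76. Tbx3, a T-box factor that ES cells also express, fell by 5.48. Foxf1, a forkhead factor of lateral mesoderm, fell by 0.74. Its signal was dim, at 2.60, 1.96 and 2.62 in EpiSC, against 3.54, 3.62 and 4.86 in mES. Dll3, Tbx3 and Foxf1, but not Sp5, lost the call without at least 1 array (limma adjusted p up to 0.0852, 0.0504 and 0.133). Tbx6, Snai1 and Msgn1, genes of nascent and paraxial mesoderm chosen here after their values were seen, differed by 0.21, 0.14 and -0.79 and did not pass (limma adjusted p 0.579, 0.833 and 0.052). Cdx1, Cdx4, Hand1 and Tbx20 had no entering probe, and Ripply2 had no probe.

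Markers of other cell types were measured in the same fit, since Foxa2, Sox17, Eomes and Lhx1 are not made in the streak alone. Of 20 tested markers of visceral and primitive endoderm, 6 rose and 1 fell, with a list median of 0.68. Gata6, a GATA factor of primitive endoderm (log2 3.57), Rbp4, a retinol carrier (2.17), and Col4a1, a basement membrane collagen (1.79), rose, and Apoe, an apolipoprotein, fell by 2.94. The calls of Gata6, Rbp4 and Col4a1 were lost without some single array (limma adjusted p up to 0.0552, 0.109 and 0.135), and the other 2 probes of Gata6 gave 0.05 and 3.88. Ttr and Afp had no entering probe. Ttr was not well above background on any of the 6 arrays and Afp only on 2 EpiSC arrays and 1 mES array. Afp gave 9.61, 5.12 and 1.11 in EpiSC, against 1.56, 3.40 and 1.38 in mES. Apoa1 gave 37.6, 16.0 and 3.51 in EpiSC, against 2.29, 3.22 and 1.96 in mES. It did not pass (log2 2.40, limma adjusted p 0.0711). Amn, Cubn and Dab2 were well above background on all 6 arrays. They differed by -0.66, -1.58 and 0.62 on the log2 scale and did not pass (limma adjusted p 0.485, 0.0753 and 0.159). Ttr, Afp and these 4 genes were singled out after their values were seen. The summed signal of the 20 markers, Apoe included, was 6826, 4292 and 3264 in EpiSC, against 9353, 6650 and 7866 in mES. EpiSC-5 lay above ESF175/1, so the groups overlapped. Without Apoe, a sum computed after the values were seen, it was 6037, 3573 and 2393 in EpiSC, against 1601, 1079 and 2671 in mES, and the groups overlapped too. Centred on each gene's mean, the median of the list was 1.06, 0.07 and -0.02 in EpiSC, against -0.25, -0.68 and -0.01 in mES. On each of these measures EpiSC-5 was the highest EpiSC array, as it was for Gsc, Sox17 and Lhx1. Their part in these differences was not tested.

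Of 13 tested trophoblast markers, 1 rose (Krt7, log2 2.74) and 4 fell (Esx1, Tfap2c, Tead4 and Plet1, with log2 differences of -5.99, -2.48, -1.61 and -1.57), and the list median was 0.55. Krt7, Tead4 and Plet1 lost the call without some single array (limma adjusted p up to 0.0786, 0.0935 and 0.0676). Their summed signal was 985, 712 and 438 in EpiSC, against 764, 1023 and 913 in mES. The other tested markers did not pass (limma adjusted p 0.0781 to 0.912). Their log2 differences were 2.91 for Gata3, 1.89 for Fgfr2, 1.36 for Elf5 and 1.26 for Peg10. Those of Sox21, Cdx2, Gata2 and Ascl2 were 0.71, 0.55, 0.18 and -0.92, and the other probes of Sox21 gave 0.87 and 3.11. Elf5 was well above background on all 3 EpiSC arrays and 1 mES array, and Hand1 was above background on no array. The part of trophoblast markers in the difference of Eomes was not tested.

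Of 19 tested fibroblast markers, 2 rose (Tagln, log2 1.70, and Acta2, 0.90) and 0 fell (limma), and the list median was -0.32. Acta2 lost its call without some single array (limma adjusted p up to 0.0809). Their summed signal was 17783, 6989 and 11157 in EpiSC, against 11232, 3168 and 13429 in mES, so the groups overlapped. The ESF58 sum lacks Col1a2, which had no value on that array and gave 422 to 4156 units on the others. EpiSC-7 P25 and ESF175/1 had the lowest sums of their groups. EpiSC-7 P25, the lowest EpiSC array in fibroblast markers, was the highest for T, Eomes, Mixl1 and Foxa2. Without EpiSC-7 P25 and ESF175/1, the log2 differences were 4.15 for T, 3.60 for Eomes, 6.20 for Gsc, 7.82 for Foxa2 and -1.46 for Mesp2, and these calls held. In that fit of 4 arrays, chosen after the data were seen, 8 of the 10 calls held, and Mixl1 (log2 2.97) and Sox17 by A_51_P273667 (3.94) did not pass (limma adjusted p 0.0705 and 0.0628). Of the pathway genes above, 14 passed in that fit.

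For each member, the genes whose profile over the 6 arrays lay nearest to it were found by the Euclidean distance between centred log2 profiles, among 13159 named genes, as a description of these arrays. Profiles were not scaled, so the distance depends also on the size of a member's difference and does not compare members with each other. The nearest gene to Sox17 was Sema6d, a semaphorin, at a distance of 0.37, and the nearest to Lhx1 was Tph1, a tryptophan hydroxylase, at 0.69. Eomes lay nearest to Egflam (0.74) and Tmem163 (0.75), and T to Lypd6 (0.91) and Cyp4f15 (0.94). Fgf5, an FGF ligand of the postimplantation epiblast, lay 1.48 from Foxa2, followed by Rflna at 1.66. Flt1, a VEGF receptor, lay 1.67 from Gsc, followed by Slc39a8 at 1.83. Mixl1 lay nearest to Btbd17 (0.94) and Cnn1 (1.12). The second neighbours of Sox17 and Lhx1 were Prss12 (1.06) and F5 (1.36). Mesp2 lay nearest to Mtf2, a Polycomb-associated protein, and Adarb1, an RNA-editing deaminase, both at 0.23, and Mesp1 to Pip4p1 (0.16) and Ackr2 (0.21).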

How the data were processed

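Total RNA of 6 cultures was prepared with TRIzol and measured on 1-colour Agilent arrays after Cy3 labelling, per the labels. The deposited scanner files hold linear spot intensity values, made with Agilent Feature Extraction 9.1.3.1 per the file headers, and the processed signal used here has had no normalization across arrays. The value table of the series is also an intensity, deposited by the authors, and differed from that signal by at most 0.00716 on the log2 scale, so it is the same signal, uncentred and on a linear scale. The number of arrays limits the precision. The build behind the probe design is not used here.

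Control spots and outlier spots (12 to 24 per array) were left out, spots of 1 probe were averaged on the log2 scale, and each array's 75th percentile over probes was subtracted. Probes entered when marked well above background on all arrays of 1 group or both, with at most 1 missing value per group. All 29553 entering probes were fitted with limma 3.58.1 (lmFit and eBayes) in R 4.3.3 with no covariate, and p-values are two-sided and adjusted by Benjamini-Hochberg over all probes. Adjusted p-values and standard errors are limma's. Genes of lists are represented by their brightest entering probe in the same fit. Of the 41174 probes, 22951 were named through a RefSeq accession, and the others kept the file's name, which can be old. Gene coordinates, promoters and names are RefSeq's for GRCm38.p6. The scripts were tested on simulated data. Unused per-sample columns numbered 0.

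The members and gene lists were chosen with earlier results of these data known. All 9 members are named with every probe, and of each list up to 3 genes past the threshold in each direction, genes needed for a count of 5 or fewer, and the 2 nearest profiles of each member. Alternatives varied the scaling, background correction, filters, variance model, slide, position, value table and arrays used.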

Additional observations from a re-analysis of the deposited data

How the results depend on the processing

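The limits are these. There are 3 arrays per group and 2 EpiSC lines, each of the 4 slides held 1 group only, and dim signals (Mixl1, Mesp1, Mesp2, and Lhx1 and Sox17 in mES) lie close to background, and normexp gave smaller changes there. No member changed direction under any setting. The number of member probes called was 10, and it was 10 without any 1 array. It was 8 of 9 with 1 probe per gene, 7 of 8 with probes above background on all 6 arrays, 9 at position 4 alone and 8 of 12 without the arrays lowest in fibroblast markers, and 10 in each other setting. Calls lost were Sox17 by A_51_P273667 (adjusted p 0.0546 at position 4 and 0.0628 without the arrays lowest in fibroblast markers) and Mixl1 (0.0705 in the fit without those arrays). The log2 fold change of Mixl1 ranged from 1.04 with normexp to 5.47 at position 1 alone. The count over all probes was 7708, and it was 12145 with no filter on dim probes, 16971 with the slide as a random block, 3895 at position 4 alone, 2078 without the arrays lowest in fibroblast markers, and between 4118 and 7142 without 1 array, with 4478 without EpiSC replicate 1, 4118 without EpiSC replicate 3 and 4848 without mES replicate 2. The slide block fitted a negative correlation of -0.69, which lowers the errors, so calls gained there are no support. Pathway genes called were 32, and 52 with the slide block, 17 at position 4 alone, 14 without the arrays lowest in fibroblast markers, and between 20 and 30 without 1 array, with 20 without EpiSC replicate 3. Median scaling, quantile scaling and normexp moved the median log2 fold change of all probes to 0.01, -0.02 and -0.16, against -0.09. The median over spots and the fit without the arrays lowest in fibroblast markers were chosen after seeing the data. Between EpiSC-5 and EpiSC-7, limma called 0 probes among the members in each setting with a value, and 4 of them were at an unadjusted p under 0.05 in the setting reported. No paired analysis was possible because the numbers only name the samples and pair none of them.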
